A study of Mus musculus with 19 samples.

Results

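Neurotrophins and their receptors were described here through 6 genes: the ligands Bdnf and Ntf3, the receptor tyrosine kinases Ntrk2 (TrkB) and Ntrk3 (TrkC), the low-affinity receptor Ngfr (p75) and the sorting receptor Sort1 (sortilin). The genes were chosen by family membership and found by their Ensembl identifiers, and they are 6 of the 51789 genes in the count table. All 6 passed the filter on low counts in each of the 3 comparisons below. RNA was sequenced from 19 libraries of dorsal hippocampus, from male C57BL/6J mice of 2 to 4 months, in a study of memory consolidation.

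In experiment 1 all libraries came from mice with the tetracycline transactivator tTA (tTA+) after SOR, an exposure whose abbreviation the labels do not spell out. There, 5 mice also carried DN, which the series describes as Nr4ADN (Nr4A proteins are transcription factors, and DN commonly stands for dominant negative), and 6 littermate controls did not. In experiment 2 no mouse carried DN, and the groups were 4 mice after SOR and 4 homecage mice. The SOR mice of experiment 2 were 1 tTA- mouse (replicate 1) and 3 tTA+ mice (replicates 2 to 4). The homecage mice were 2 tTA- mice (replicates 1 and 2) and 2 tTA+ mice (replicates 3 and 4). The labels do not say which promoter drives tTA, and the labels separate the 2 experiments.

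Neurotrophins are secreted as precursors and as mature proteins. BDNF acts mainly through TrkB, and NT-3, the product of Ntf3, mainly through TrkC; both are known in the hippocampus for their part in synaptic plasticity and, for BDNF, in long-term memory. The p75 receptor binds all mature neurotrophins, and together with sortilin it forms a receptor for their precursors; sortilin also sorts the BDNF precursor inside the cell. Bdnf is transcribed from several alternative first exons, some of which neuronal activity induces through the cyclic AMP response element binding protein (CREB), while Nr4A proteins bind a short element called NBRE.

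Start-site sequences from RefSeq on GRCm38.p6 were at hand for 4 of the 6 genes, in 11 windows of 300 bases: 7 for Bdnf, 2 for Ntf3, 1 for Ntrk2 and 1 for Ngfr. The NBRE, AAAGGTCA, was found on neither strand in any of the 11 windows, against 1.51% of all 32817 windows. The palindromic CRE, TGACGTCA, was likewise found in 0 of 11, against 1.79% of all windows. A CRE-like octamer, TCACGTCA, searched on both strands after the first motifs had been counted, was present in 1 of the 11 windows and in 0.442% of all windows. That match lies 38 bases before Bdnf start site 3, at chr2:109692398-109692405 on the plus strand. The stretch below is shown because it carries this match. The stretch lies at chr2:109692358-109692435 on the plus strand, with the octamer in capitals.

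Bdnf, RefSeq start site 3: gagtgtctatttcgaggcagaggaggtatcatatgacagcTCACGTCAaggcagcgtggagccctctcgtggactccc

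These matches describe letters only, and the count table holds 1 value per gene, so it does not tell the Bdnf start sites apart. For the same reason the full-length and the truncated, kinase-lacking forms of TrkB and TrkC are summed in the values of Ntrk2 and Ntrk3.

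Libraries held 22258159 to 66991576 counts, and markers of neurons, granule cells and the CA fields were present in all 19, as the tissue label says. Summed markers of choroid plexus, a tissue that borders the hippocampus, ranged from 324 to 6515 CPM (counts scaled to library size). Homecage replicate 3, a tTA+ mouse, stood apart from the other libraries in another way. It held 173 counts of Chat, the enzyme that makes acetylcholine, against 0 to 33 in the other 18 libraries, and 73 counts of Lhx8, a transcription factor of forebrain cholinergic neurons, against 0 to 10. Its 6 cholinergic markers, looked up after the Ngfr levels were seen, summed to 16.0 CPM, against 0.972 to 5.80 CPM elsewhere, the next highest being SOR replicate 4 of experiment 2. Ngfr is itself a well-known marker of such neurons, so the differences of the 6 genes in experiment 2 are given with and without homecage replicate 3. P-values measure the spread between these libraries; each library is taken as 1 mouse, which the labels do not state.

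Levels of different genes were compared per length, as CPM per kilobase of annotated exon (RPKM). Sort1 was the most abundant transcript of the family at 103 ± 7.48 RPKM (SD, n = 19), followed by Ntrk2 at 33.2 ± 1.82. Bdnf at 11.1 ± 1.28 and Ntrk3 at 9.92 ± 1.13 were neighbours whose ranges overlapped, with Bdnf higher in 14 of the 19 libraries. Ntf3 followed at 4.20 ± 0.703 and Ngfr came last at 0.502 ± 0.177. All other neighbours in this order were separated in 19 of 19 libraries. Scaled by the longest annotated transcript instead, the order was the same but the distances were not: Ntrk2 was 73.1 ± 4.02 RPKM and Sort1 114 ± 8.28, so their ratio was 1.56 in place of 3.11.

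**Figure D1:**
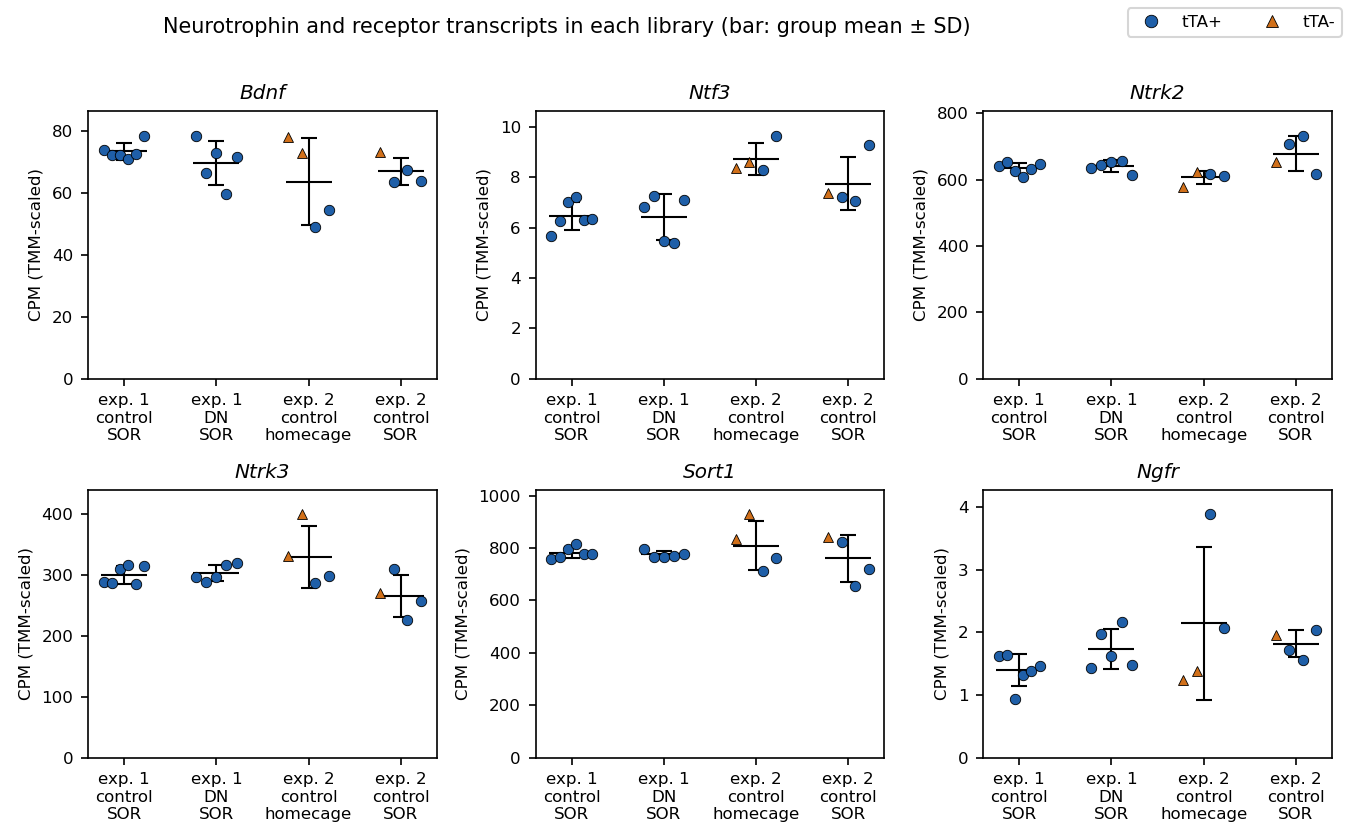
Level of each gene in CPM (vertical axes, starting at 0, after TMM scaling within each experiment) in each of 19 libraries, by group. Blue circles are tTA+ mice, orange triangles tTA- mice, and bars give the group mean ± SD; the Bdnf triangles lie between 73.0 and 78.0 CPM, above every circle of experiment 2, and 1 homecage circle of Ngfr stands at 3.88 CPM.

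The first comparison asked whether mice carrying DN differed from controls after SOR. None of the 6 genes was called, that is, none had an adjusted p under 0.05 in edgeR's quasi-likelihood test; of all 22391 genes tested, 0.00893% were called. No member had an unadjusted p under 0.05 (3.83% of all genes did), and no member's groups failed to overlap (0.299% of all genes). The adjusted p was 0.999 for each of the 6 genes. Choroid plexus sums were 324 to 3002 CPM with DN and 334 to 6515 CPM in controls, with 8 of 8 markers lower with DN on average and none called, and their part in the values below was not tested. In bulk tissue a difference in RNA per cell and a difference in the number of cells cannot be told apart, here and below.

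Among the ligands, Bdnf measured 78.6, 66.5, 72.9, 59.7 and 71.8 CPM in the 5 DN libraries. In the 6 controls its lowest value was 71.1, its median 72.6 and its highest 78.6 CPM. The DN values spread more widely and overlapped the controls, with 2 of them below every control. The log2 difference, DN minus control, was -0.07 (SE 0.0536, unadjusted p = 0.188 by edgeR), and the 95% interval of the fold ran from 0.879 to 1.03. It was -0.02 without DN replicate 4, the lowest library, and -0.12 (unadjusted p = 0.0242 by edgeR) without DN replicate 1, the highest. Ntf3 measured 6.84, 7.27, 5.48, 5.40 and 7.09 CPM with DN, against a lowest of 5.67, a median of 6.34 and a highest of 7.21 CPM in controls. The DN values enclosed the control range, and the log2 difference was -0.02 (SE 0.0990).

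Of the Trk receptors, Ntrk2 measured 636, 645, 655, 657 and 615 CPM with DN and 607 to 653 CPM in controls, with a control median of 636. Ntrk3 measured 296, 288, 296, 316 and 319 CPM with DN and 284 to 316 CPM in controls, with a control median of 299. The DN and control values of both receptors overlapped over most of their ranges. The 95% interval of the fold was 0.965 to 1.06 for Ntrk2 and 0.954 to 1.07 for Ntrk3.

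Sort1 measured 797, 766, 767, 771 and 775 CPM with DN, and 758, 778 and 815 CPM as the lowest, median and highest control. All 5 DN values fell within the control range, and the fold interval was 0.947 to 1.04. Ngfr, the scarcest member with 45 to 96 counts a library in this experiment, measured 1.43, 1.98, 1.62, 2.16 and 1.48 CPM with DN. The controls ran from 0.936 to 1.64 CPM with a median of 1.42, so 2 DN libraries exceeded every control and 3 did not. Its log2 difference of 0.33 (SE 0.165, unadjusted p = 0.0585 by edgeR) had a fold interval of 0.991 to 1.59, the widest of the 6. Without DN replicate 4, the highest library, the Ngfr difference was 0.23, and without DN replicate 1 it was 0.39.

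**Figure D2:**
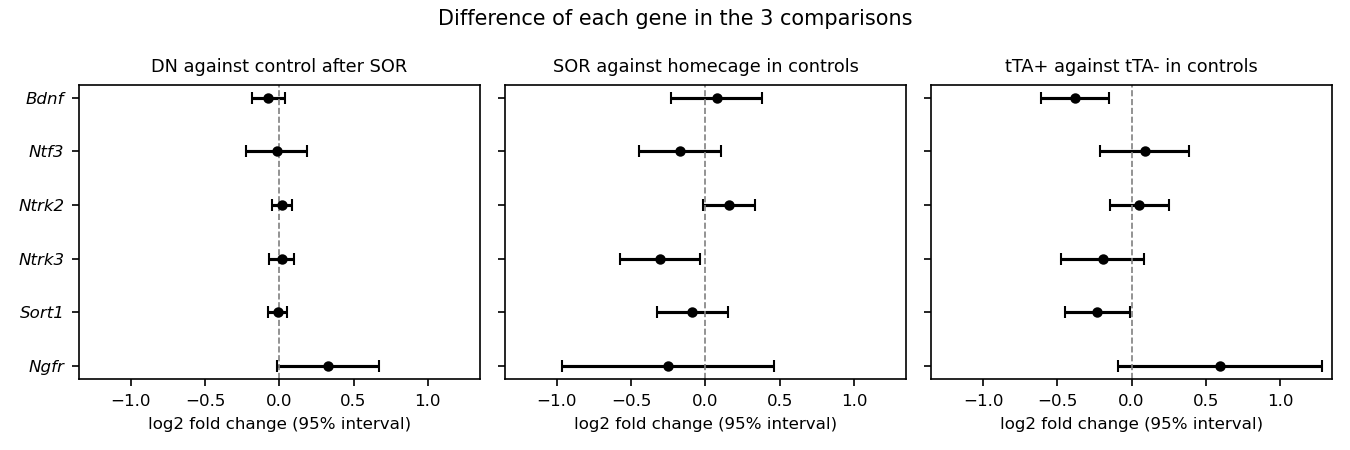
Log2 fold change (horizontal axes) of each gene in the 3 comparisons, as points with 95% intervals from edgeR; the dashed line marks no difference. The DN intervals of Bdnf, Ntf3, Ntrk2, Ntrk3 and Sort1 are short and cross 0, the tTA interval of Bdnf runs from -0.61 to -0.15, and Ngfr has the widest interval in each panel.

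The second comparison set SOR against homecage in the controls of experiment 2. Again 0 of 6 genes were called, beside 0.0897% of all 22305 genes. One member, Ntrk3, had an unadjusted p under 0.05 (7.6% of all genes did), and the groups of no member were separate (5.71% of all genes). Summed choroid plexus markers were 358 to 3735 CPM after SOR and 357 to 534 CPM in the homecage, with 8 of 8 markers higher after SOR on average, 5 of them at an unadjusted p under 0.05 and none called. Of 8 astrocyte markers 5 were higher and 3 lower after SOR on average, with a median log2 difference of 0.11. The 1 called was Gjb6, a gap junction protein, higher after SOR. Gjb6 measured 41.6 ± 3.92 CPM in the homecage and 70.9 ± 10.6 CPM after SOR (SD, n = 4 each, log2 difference 0.77, adjusted p = 0.0427 by edgeR). The astrocyte sums overlapped, at 4936 to 5728 CPM after SOR and 5081 to 5534 CPM in the homecage. Oligodendrocyte markers were higher after SOR in 7 of 8 cases, 2 at an unadjusted p under 0.05 and none called, with sums of 6149 to 7248 CPM against 5665 to 6758 CPM. The part of these cell types in the values of the SOR comparison, Arc and Fos included, was not tested.

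Bdnf measured 73.2, 63.7, 67.6 and 63.9 CPM after SOR and 78.0, 73.0, 49.0 and 54.7 CPM in the homecage. The SOR values sat inside the homecage range, which was itself split by tTA genotype into 2 high and 2 low libraries. The log2 difference, SOR minus homecage, was 0.08 (SE 0.140, adjusted p = 0.876 by edgeR), and without homecage replicate 3 it was -0.03. The groups were unequal in tTA genotype; with tTA as a covariate the difference was 0.20 (unadjusted p = 0.0787), and with all 19 libraries in 1 fit, tTA included, 0.20 (unadjusted p = 0.0249, adjusted p = 0.3185 by edgeR), or 0.11 with homecage replicate 3 left out of that fit. With tTA+ mice alone, 3 against 2, the difference was 0.32 (unadjusted p = 0.0311, adjusted p = 0.998 by edgeR), with every SOR library above both homecage libraries. The difference between the SOR effects of tTA+ and tTA- mice, a test added after the levels were seen and resting on 1 tTA- library after SOR, was 0.37 (SE 0.176, adjusted p = 0.9998 by edgeR), and 0.29 (adjusted p = 0.9999) without homecage replicate 3. Ntf3 measured 7.38, 7.23, 7.05 and 9.30 CPM after SOR and 8.38, 8.60, 8.29 and 9.66 CPM in the homecage. Only SOR replicate 4 reached the homecage range, and the log2 difference was -0.17 (SE 0.127, adjusted p = 0.702), and -0.20 without homecage replicate 3. Without SOR replicate 4 it was -0.27 (unadjusted p = 0.0499 by edgeR).

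Ntrk3 measured 270, 309, 226 and 258 CPM after SOR, against 331, 399, 286 and 298 CPM in the homecage. Its groups overlapped through SOR replicate 2 alone. The log2 difference was -0.31 (SE 0.123, unadjusted p = 0.0299, adjusted p = 0.625 by edgeR), and -0.37 without homecage replicate 3. Without homecage replicate 2, its highest library, it was -0.20 (unadjusted p = 0.109 by edgeR). With tTA+ mice alone it was -0.15 (unadjusted p = 0.368). Ntrk2, the receptor of BDNF, measured 653, 708, 733 and 617 CPM after SOR and 578, 622, 617 and 612 CPM in the homecage. Here 3 of the 4 SOR libraries lay above every homecage library, with a log2 difference of 0.16 (SE 0.0804, unadjusted p = 0.0731, adjusted p = 0.662), and 0.17 without homecage replicate 3.

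Sort1 measured 842, 823, 655 and 721 CPM after SOR and 834, 928, 711 and 762 CPM in the homecage, which overlapped widely, with a log2 difference of -0.09 (SE 0.109), and -0.15 without homecage replicate 3. It was -0.02 without homecage replicate 2, -0.02 without SOR replicate 3, -0.03 with tTA as a covariate and -0.01 with tTA+ mice alone. Ngfr measured 1.96, 1.72, 1.56 and 2.04 CPM after SOR and 1.24, 1.38, 3.88 and 2.07 CPM in the homecage. The 4 SOR values lay between the low tTA- and the high tTA+ homecage libraries, and the library at 3.88 CPM is the one with the cholinergic markers. The log2 difference of Ngfr was -0.25 (SE 0.327, adjusted p = 0.814 by edgeR), and 0.22 without that library, so its sign rested on 1 mouse. With tTA+ mice alone, which include that library, it was -0.75 (unadjusted p = 0.0515, adjusted p = 0.998).

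The third comparison was by tTA genotype within experiment 2, 5 tTA+ libraries and 3 tTA- libraries, with a term for exposure. None of the 6 genes was called (0.358% of all 22904 genes were). Bdnf and Sort1 had an unadjusted p under 0.05 (5.71% of all genes did), and both had groups that did not overlap (5.81% of all genes), with the lower values in tTA+ mice.

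Bdnf measured 78.0, 73.0 and 73.2 CPM in the tTA- mice, the last after SOR. In the tTA+ mice it measured 49.0 and 54.7 CPM in the homecage and 63.7, 67.6 and 63.9 CPM after SOR. The tTA+ values were all below the lowest tTA- value, and the homecage ones were the lowest of all 19 libraries. The log2 difference, tTA+ minus tTA-, was -0.38 (SE 0.104, fold interval 0.654 to 0.900, unadjusted p = 0.00401, adjusted p = 0.323 by edgeR), which ranked 284 among the genes tested. Without homecage replicate 3 it was -0.31 (unadjusted p = 0.0238), and without SOR replicate 4 as well, -0.31.

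The Bdnf difference was called in 3 other fits of the full or reduced set of libraries, and in 1 of 8 that left out a single library. With all 19 libraries in 1 fit it was -0.38 (adjusted p = 0.0181 by edgeR, where 383 of 23716 genes were called), but the adjusted p was 0.166 once homecage replicate 3 was left out. In homecage mice alone, 2 against 2, it was -0.54 (adjusted p = 0.00464, with 944 of 22617 genes called). With homecage replicate 3 left out of these, 1 tTA+ library stood against 2 and was assumed to vary as they did; the difference was -0.46 (adjusted p = 0.0318, with 520 of 23714 genes called). Without SOR replicate 3, the shallowest library, the adjusted p was 0.0448.

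Granule cells of the dentate gyrus, a main site of Bdnf transcription in the hippocampus, differed in their markers in the same comparison. Of 10 granule markers, 5 were called lower and 1 higher in tTA+ mice, with a median log2 difference of -0.67 beside 0.01 for all genes, and 2 to 6 were called lower with a library left out. Their summed level was 804 to 864 CPM in tTA- mice and 480 to 591 CPM in tTA+ mice of experiment 2. Oligodendrocyte markers lay the other way, with 8 of 8 higher in tTA+ mice on average (median log2 difference 0.20, 2 at an unadjusted p under 0.05, none called) and sums of 5665 to 6316 CPM in tTA- and 6149 to 7248 CPM in tTA+ mice. The part of either cell type in the Bdnf values was not tested. In experiment 1, where all mice were tTA+, the granule sum was 479 to 634 CPM and Bdnf was 59.7 to 78.6 CPM. With all 19 libraries scaled together, Bdnf was 58.7 to 77.4 CPM in experiment 1, 74.7 to 80.1 in tTA- and 50.0 to 71.4 in tTA+ mice of experiment 2. Between tTA+ controls after SOR, present in both experiments, the same scaling gave 69.7 to 77.3 CPM in experiment 1 and 64.4 to 71.4 CPM in experiment 2.

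**Figure D3:**
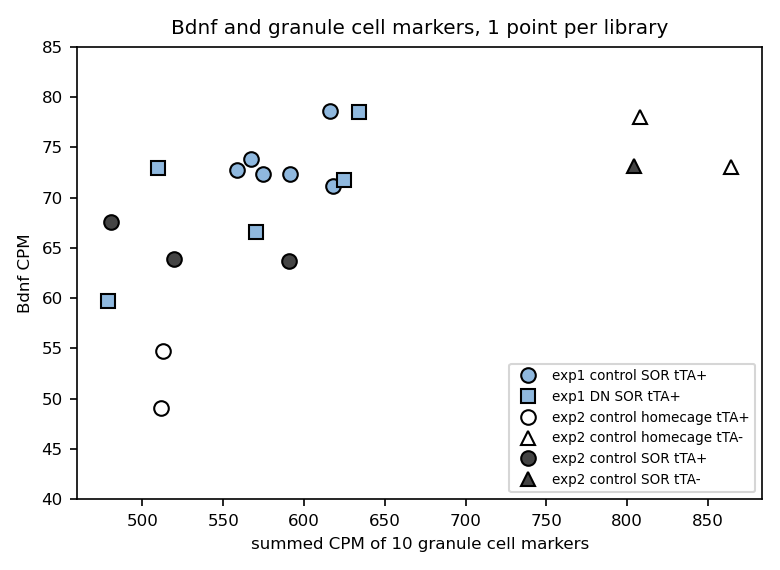
Bdnf CPM (vertical axis, from 40) against the summed CPM of 10 granule cell markers (horizontal axis), 1 point per library, with triangles for tTA- mice. The 3 tTA- libraries stand apart on the right at 804 to 864 CPM, while libraries of experiment 1 (blue) lie at 479 to 634 CPM with Bdnf from 59.7 to 78.6 CPM.

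Sort1 measured 834, 928 and 842 CPM in the tTA- mice and 711, 762, 823, 655 and 721 CPM in the tTA+ mice. The groups were separate by a small margin between 823 and 834 CPM. The log2 difference was -0.23 (SE 0.0979, unadjusted p = 0.0397, adjusted p = 0.822 by edgeR), and -0.20 (unadjusted p = 0.116) without homecage replicate 3. With all 19 libraries in 1 fit Sort1 was -0.23 (adjusted p = 0.0568 by edgeR), or -0.20 (adjusted p = 0.303) with homecage replicate 3 left out. In homecage mice alone it was -0.26 (adjusted p = 0.0936 by edgeR), and -0.20 with homecage replicate 3 left out of these. Ntrk3 overlapped, at 331, 399 and 270 CPM in tTA- mice and 226 to 309 CPM in tTA+ mice, with a log2 difference of -0.20 (SE 0.126), and -0.15 without homecage replicate 3. It was -0.09 without homecage replicate 2, -0.32 (unadjusted p = 0.0810 by edgeR) without SOR replicate 1 and -0.32 (adjusted p = 0.0728) in homecage mice alone. Ntrk2 and Ntf3 overlapped as well, with log2 differences of 0.05 (SE 0.0902) and 0.09 (SE 0.136), which were 0.05 and 0.14 without homecage replicate 3. With each library left out Ntrk2 ranged from 0.0296 to 0.0855 and Ntf3 from 0.0288 to 0.138.

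Ngfr measured 1.24, 1.38 and 1.96 CPM in tTA- mice and 3.88, 2.07, 1.72, 1.56 and 2.04 CPM in tTA+ mice. The tTA- mouse exposed to SOR lay among the tTA+ values, so the groups overlapped. The log2 difference was 0.60 (SE 0.310, unadjusted p = 0.0827, adjusted p = 0.998 by edgeR). Without homecage replicate 3, the cholinergic-rich library, it was 0.23 (unadjusted p = 0.385). Without SOR replicate 1, the tTA- mouse after SOR, it was 1.19 (unadjusted p = 0.00711, adjusted p = 0.6645 by edgeR). In homecage mice alone it was 1.20 (adjusted p = 0.0548), and 0.66 (adjusted p = 0.464) with homecage replicate 3 left out of these.

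Across libraries some members moved together within their groups. The 15 pairs of members were correlated on log2 CPM centred by group, with p from 100000 permutations within groups and Benjamini-Hochberg adjustment over the 15 pairs. The permutations did not keep tTA+ and tTA- mice apart, so these p-values can carry a tTA difference. No p was computed for the values centred by tTA. Ntrk3 and Sort1 were high in the same libraries: r = 0.872 (adjusted p = 0.0113) and rho = 0.842 (adjusted p = 0.0018) over 19 libraries. The relation was r = 0.804 without the 2 libraries farthest from the median of Ntrk3, 0.522 in experiment 1, 0.920 in experiment 2, 0.851 without homecage replicate 3, and 0.897 over 18 libraries when centred by tTA genotype as well. Bdnf and Ngfr ran in opposite directions, r = -0.777 (adjusted permutation p = 0.0442), though rho = -0.630 missed the threshold (adjusted p = 0.128). It was r = -0.478 over the 11 libraries of experiment 1 and -0.881 over the 8 of experiment 2. Without the 2 outermost libraries of Bdnf r was -0.533, without homecage replicate 3 it was -0.663, and centred by tTA as well it was -0.572. Ntf3 and Ntrk2 were also opposed, r = -0.609 (adjusted permutation p = 0.0442) and rho = -0.607 (adjusted p = 0.0607), with r = -0.711 in experiment 1 -0.650 in experiment 2 and -0.605 without homecage replicate 3. The other 12 pairs had adjusted p-values of 0.374 or more for r. CPM values of 1 library share its depth and composition, which such correlations carry.

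**Figure D4:**
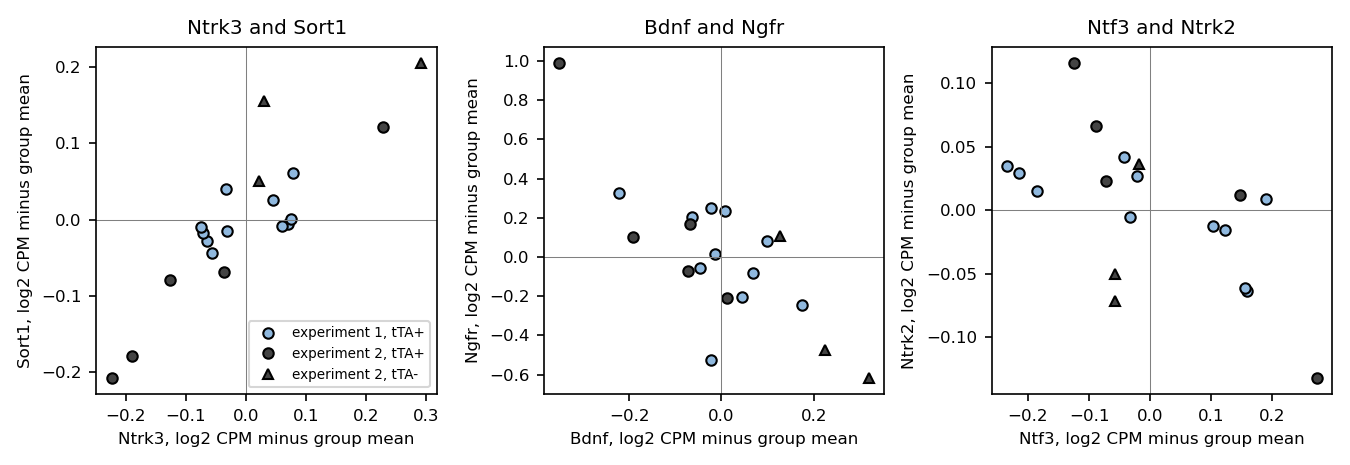
Log2 CPM minus the group mean of 2 genes against each other, 1 point per library (blue, experiment 1; dark, experiment 2; triangles, tTA- mice), for the 3 pairs with an adjusted p under 0.05 for r. Ntrk3 and Sort1 lie along a rising line (r = 0.872), Bdnf and Ngfr along a falling one (r = -0.777) with homecage replicate 3 at its upper end, and Ntf3 and Ntrk2 fall (r = -0.609).

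The genes most like each member over the 19 centred libraries, of 21739 measured in both experiments, were taken as the 3 with the highest r, as a description. For Bdnf these were Npnt (0.876), Jph1 (0.869) and Ppp1r16b (0.847); Npnt is also among the granule markers called lower in tTA+ mice. For Sort1 they were Rasgrf1 (0.948), Gm19932 (0.937) and Foxo1 (0.935), and for Ntrk3 Tmem131 (0.945), Gm36939 (0.944) and 9430087J23Rik (0.943). Ngfr was closest to Ttc30a1 (0.900), Sik1 (0.880) and Zfp521 (0.846), Ntrk2 to Socs7 (0.878), Uck2 (0.847) and Mgat5 (0.836), and Ntf3 to Gm18529 (0.866), Ptgs1 (0.773) and Armc8 (0.773). Over the 8 libraries of experiment 2 alone, centred by exposure, the closest gene to Bdnf was Stard5 (0.973) and to Ngfr 4930563E22Rik (0.988), neither of which is among the 3 closest over all 19. In log2 CPM of Ngfr, homecage replicate 3 lay 0.99 above its group mean, farther than any other library. Likeness was not computed without this library.

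The rest of the pathway was read from 6 lists chosen for function. Among 7 tested of the other family genes, none was called in any comparison; Sorcs3, a relative of sortilin, had a log2 difference of -0.23 with tTA (unadjusted p = 0.0390, adjusted p = 0.819 by edgeR) and Nradd, a relative of p75, 0.38 with SOR (adjusted p = 0.662). Among 12 tested genes of neurotrophin processing and secretion none was called either. Plat, the protease tPA that activates plasminogen, was 62.0 ± 3.87 CPM after SOR and 48.3 ± 2.98 in the homecage (n = 4 each), with a log2 difference of 0.36 (adjusted p = 0.279), and Pcsk5, a proprotein convertase, had -0.57 with tTA (adjusted p = 0.414).

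Downstream of the receptors, none of 39 Trk signalling genes and none of 12 partners of p75 and sortilin was called. The smallest p-values belonged to Plcg2, a phospholipase C (-0.35 with tTA, adjusted p = 0.808), Frs2, an adaptor of Trk receptors (-0.21 with SOR, adjusted p = 0.656), Traf6 (-0.07 with DN) and Nsmaf (0.07 with DN), both with adjusted p = 0.999. None of 15 transcription factors that act on Bdnf was called; Bhlhe40, a repressor, had a log2 difference of 0.32 with SOR (adjusted p = 0.378) and Srf 0.28 (adjusted p = 0.629).

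Of the 14 genes known to be induced by BDNF, 2 were called, both higher after SOR, where 0.0897% of all 22305 genes were called. The list was chosen with earlier results of these data known. Arc, a regulator of AMPA receptor trafficking, rose from 75.5 ± 8.87 to 130 ± 9.62 CPM (SD, n = 4 each), a log2 difference of 0.79 (SE 0.0991, adjusted p = 0.0131 by edgeR). Fos, an immediate early transcription factor, rose from 4.16 ± 1.06 to 9.40 ± 0.865 CPM, a log2 difference of 1.17 (SE 0.182, adjusted p = 0.0432). With 1 library left out, the adjusted p of Arc by edgeR ranged from 0.00643 to 0.0863 and that of Fos from 0.0283 to 0.265. Without homecage replicate 3 they were 0.0863 and 0.187. With tTA+ mice alone 0 of 22910 genes were called, so neither Arc nor Fos was called there. All 14 genes had positive log2 differences with SOR, beside 51.5% of all genes, with a median of 0.29 beside 0.01 for all genes. With DN 12 of the 14 had negative log2 differences, beside 11191 of all 22391 genes, with a median of -0.22 beside 0.00 for all genes. None was called, and 1 had an unadjusted p under 0.05 by edgeR. Their summed levels overlapped, at 644 to 833 CPM with DN and 690 to 1114 CPM in controls. These genes also respond to neuronal activity in other ways. Bdnf itself differed by 0.08 with SOR, or 0.195 with tTA as a covariate, and by -0.07 with DN. The part of BDNF in the values of these genes was not tested.

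Genes on the opposite strand share exonic bases with 2 members. The antisense gene Gm45346 shares 896 exonic bases with Bdnf and had 3 to 18 counts a library, and Gm12523 shares 338 with Sort1 and had 2 to 19. Against 1428 counts or more of Bdnf and 13836 or more of Sort1 in each library these were small. The strand setting is not given, so they do not show how far the shared bases alter the Bdnf and Sort1 counts. On GRCm38 Bdnf (ENSMUSG00000048482.14) spans chr2:109674700-109727007 on the plus strand with 13 annotated exons, Ntf3 (ENSMUSG00000049107.13) chr6:126101412-126166910 on the minus strand with 5, and Ntrk2 (ENSMUSG00000055254.14) chr13:58806569-59133970 on the plus strand with 35. Ntrk3 (ENSMUSG00000059146.12) spans chr7:78175959-78738012 on the minus strand with 68, Ngfr (ENSMUSG00000000120.6) chr11:95568818-95587735 on the minus strand with 6, and Sort1 (ENSMUSG00000068747.14) chr3:108284082-108361511 on the plus strand with 25.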

How the data were processed

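The authors deposited whole-number counts per gene for 19 libraries of ribosomal-RNA-depleted total RNA, as 1 table of 51789 Ensembl identifiers. STAR, SAMtools 1.6, featureCounts 1.4.4 and the build mm10 are named in the submitters' processing notes; the annotation, strand setting and handling of multiply mapped reads are not given in the sources used here. Symbols, positions and exon lengths came from GENCODE M21 (GRCm38), which held 51596 of the identifiers, 47611 in the same version (Ntrk2 in another); start-site windows came from RefSeq.

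Each experiment was fitted alone in R 4.3.3 with edgeR 4.0.16 (filterByExpr, TMM scaling, robust quasi-likelihood F test, two-sided, Benjamini-Hochberg over all genes tested); calls were made at a threshold of 0.05 on adjusted p. The SE is the log2 difference divided by the root of F. CPM and RPKM were computed from the deposited counts. Libraries held 22258159 to 66991576 counts. The 3 fits held 5 DN against 6 control, 4 SOR against 4 homecage, and 5 tTA+ against 3 tTA- libraries (with exposure). Fits were tested on simulated data. Alternatives were other scalings, filters, DESeq2 1.42.0, limma-voom (limma 3.58.1), 1 fit of all libraries, a replicate block, a threshold of 0.1, tTA as a covariate of SOR, tTA without exposure, subsets by tTA or exposure, and each library left out.

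Named were the 6 members, every called gene of the other pathway lists (otherwise the 2 of smallest p), and the 3 genes most correlated with each member. Members and lists were chosen with earlier results of these data known. The cholinergic markers, the fits without libraries rich in them, the SOR by tTA test, the CRE-like motif, the longest-transcript lengths and the joint scaling were added after seeing the data.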

Additional observations from a re-analysis of the deposited data

Results flagged for a closer look

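Among 24 groups of 4 to 6 libraries (6 genes in 4 groups), 2 held a library far from the others; chance alone sets apart about 1 in 20 groups. Bdnf in control replicate 6 of experiment 1 stood at 78.6 CPM, above 71.1 to 73.9 CPM in the other 5 controls. Ntf3 in SOR replicate 4 of experiment 2 stood at 9.30 CPM, above 7.05 to 7.38 CPM in the other 3 libraries; that library also held the second highest sum of cholinergic markers, 5.80 CPM.

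The log2 SOR effect on Ngfr in tTA+ mice minus that in tTA- mice was estimated as -1.32 (SE 0.506, unadjusted p = 0.0295, adjusted p = 0.9998 by edgeR), in a test added after the levels were seen. It did not pass the adjustment, and it rests on 1 tTA- library after SOR, which is assumed to vary like the others. In the same fit 0 of 22305 genes were called and 464 had an unadjusted p under 0.05. Ngfr was 2.07 and 3.88 CPM in tTA+ homecage mice, 1.56 to 2.04 CPM in tTA+ mice after SOR, 1.24 and 1.38 CPM in tTA- homecage mice, and 1.96 CPM in the tTA- mouse after SOR. Without homecage replicate 3 the difference was -0.80 (SE 0.504, adjusted p = 0.9999 by edgeR).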

How the results depend on the processing

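No member was called in the DN or the SOR comparison under any alternative run. In the tTA comparison 1 member, Bdnf, was called with all 19 libraries in 1 fit, in homecage mice alone, and, added after seeing the data, in homecage mice alone without replicate 3; with each library left out 0 to 1 were called, 1 without SOR replicate 3. Signs turned for Sort1 with DN under upper quartile scaling (0.0034) and for Ntf3 with tTA under the replicate block (-0.10). With each library left out, Bdnf with DN ranged from -0.121 to -0.021, Ngfr with tTA from 0.235 to 1.19, Ntrk3 with tTA from -0.319 to -0.0948, Ntrk3 with SOR from -0.387 to -0.199, Ntf3 with SOR from -0.274 to -0.12, Sort1 with SOR from -0.147 to -0.0171, Ntf3 with DN ranged from -0.067 to 0.0393, Ntrk3 with DN from -0.0025 to 0.0318, Bdnf with SOR from -0.0315 to 0.181 and Ngfr with SOR from -0.437 to 0.217, the last 2 turning without homecage replicate 3. Leaving out SOR replicate 4 as well gave Bdnf -0.01 and Ngfr 0.16 with SOR, and 1 fit of all libraries but homecage replicate 3 gave Ngfr 0.15. The cause was not tested.

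Replicate numbers were shared between groups, but same-numbered libraries correlated over 0.1 in only some pairs (-0.05 to 0.19 in experiment 1, 0.05 to 0.39 in experiment 2), so they were not taken as pairs. With the replicate block 0 members were called in each comparison, and Ntrk3 with SOR was -0.30 (unadjusted p = 0.00161, adjusted p = 0.292 by edgeR). Under the same block Ngfr with SOR was -0.09. With tTA, Bdnf was -0.39 (unadjusted p = 0.178 by edgeR), Sort1 -0.11 (unadjusted p = 0.550) and Ntrk3 -0.09 under the block. Ngfr, with 33 to 265 counts a library, is the member whose values depth limits most.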
